A study of Mus musculus with 12 samples.

Results

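Chemokine receptors steer T cells to tissues, and 9 of them that mark T cell subsets are described here: Ccr4, Ccr6, Ccr8, Ccr9, Cxcr3, Cxcr4, Cxcr5, Cxcr6 and Cx3cr1. A receptor was read from the probe set whose single annotated symbol is its name. Each of the 9 had 1 such probe set among the 41345 on the array, and all 9 were among the 14323 named genes bright enough to be tested. The samples were 12 Affymetrix MoGene-2_0-st arrays of sorted mouse T cells in 4 groups of 3. Splenocytes, the mixed white cells of the spleen, had been cultured for 24 h, either plain or with linoleic acid, an essential dietary fatty acid, at 50 µM. CD4+ and CD8+ T cells were then sorted, which gives a control and a linoleic acid group for each of the 2 cell types. The labels state the question as a possible different response of the CD4 and CD8 cells to the fatty acid. They give no strain, age, allele or number of animals, and they do not say whether arrays numbered 1, 2 and 3 come from separate animals. The p-values therefore measure the spread between these arrays, which may be technical.

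A chemokine receptor is a membrane protein coupled to a Gi-type G protein, and binding of its chemokine makes the cell move up the gradient. Naive T cells carry the receptors of lymphoid organs, while effector, memory and regulatory cells take up receptors of skin, gut, airway or inflamed tissue. T helper cells for B cell follicles, Th1, Th2, Th17 and regulatory T cells are told apart in part by these receptors.

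Of the 9 genes, 6 lie on mouse chromosome 9. Ccr9 and Cxcr6, both higher in CD8 T cells here, are separated in the RefSeq gene order by 1 gene, Fyco1. Ccr4, the member with the largest difference in the other direction, lies on the same chromosome. The 250 bases upstream of the annotated start are shown for these 3 so that the letters in front of genes that part the cell types can be seen. They are RefSeq sequence of mouse build GRCm38.p6, read 5′ to 3′ in the direction of the gene, from chr9:123766961-123767210 (plus strand) for Ccr9, chr9:123806227-123806476 (plus strand) for Cxcr6 and chr9:114496545-114496794 (minus strand) for Ccr4. Capitals mark a match, on either strand, to TGTGGT or TGCGGT, core letters of the motif of RUNX factors, a family that includes Runx3 of the CD8 lineage.
Ccr9: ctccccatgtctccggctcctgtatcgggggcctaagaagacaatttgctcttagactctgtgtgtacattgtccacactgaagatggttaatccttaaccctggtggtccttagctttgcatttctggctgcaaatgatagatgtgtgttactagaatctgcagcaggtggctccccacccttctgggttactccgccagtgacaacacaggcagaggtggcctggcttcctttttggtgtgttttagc
Cxcr6: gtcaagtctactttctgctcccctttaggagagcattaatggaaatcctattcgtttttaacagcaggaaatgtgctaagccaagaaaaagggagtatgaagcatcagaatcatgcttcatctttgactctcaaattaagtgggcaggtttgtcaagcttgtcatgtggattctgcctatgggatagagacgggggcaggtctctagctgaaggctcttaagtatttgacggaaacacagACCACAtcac
Ccr4: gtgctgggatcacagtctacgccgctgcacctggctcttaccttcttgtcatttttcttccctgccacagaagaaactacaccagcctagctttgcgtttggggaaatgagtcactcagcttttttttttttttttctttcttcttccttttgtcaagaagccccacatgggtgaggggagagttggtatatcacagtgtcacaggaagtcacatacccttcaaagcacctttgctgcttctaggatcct
Cxcr6 held 1 match, on the opposite strand and starting 10 bases before the start, and neither Ccr9 nor Ccr4 held one. A match was present in 18.6% of the 32851 mouse promoters of the same length. Of the 9 receptors 8 had a promoter in the table, and the motif was also found in Cxcr3 (1 match) and Cx3cr1 (2 matches). The letters AGATAA, a core of the motif of GATA factors, stood in 1 of the 2 promoters of Ccr6 and in that of Ccr8, and in 9.99% of all promoters. These matches describe letters only.

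The sort markers followed the labels. Cd4 lay at log2 10.77 to 11.19 in the CD4 arrays and at 5.12 to 6.48 in the CD8 arrays. Cd8a lay at 10.98 to 11.29 in the CD8 arrays and at 5.01 to 6.82 in the CD4 arrays. The T cell markers averaged 9.64 to 10.04 per array over the 8 of 10 listed genes that were measured. B cell markers, of cells outside the sort gates, set the arrays numbered 1 apart. Their mean over 13 of 15 listed genes was 5.79 to 6.25 in the 4 arrays numbered 1 and 7.01 to 7.63 in the 8 others, with 12 of the 13 above background. Myeloid markers averaged 5.20 to 5.25 in the arrays numbered 1 and 5.80 to 6.15 in the others, over 14 genes, 8 of them above background. NK cell markers averaged 4.19 to 4.69 and 4.88 to 5.14, over 5 of 8 genes, and only 2 of the 5 were above background. In such sorted populations, fewer cells of a type that carries a receptor and less of its RNA per cell cannot be told apart.

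Values are log2 RMA intensities, so a difference of 1 is a doubling, and levels are compared between arrays for one receptor and never between receptors. Olfactory and vomeronasal receptor genes, not known as T cell genes, give a gauge of background. The 95th percentile of their means was 5.11 over 1394 genes. On average over the 12 arrays, 6 receptors lay above it, namely Ccr9, Cxcr3, Cxcr4, Cxcr5, Cxcr6 and Cx3cr1. Ccr4, with a mean of 4.80, Ccr6 with 4.73 and Ccr8 with 4.39 lay below it, although the CD4 group means of Ccr4, 5.56 without and 5.29 with linoleic acid, were above it.

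**Figure D1:**
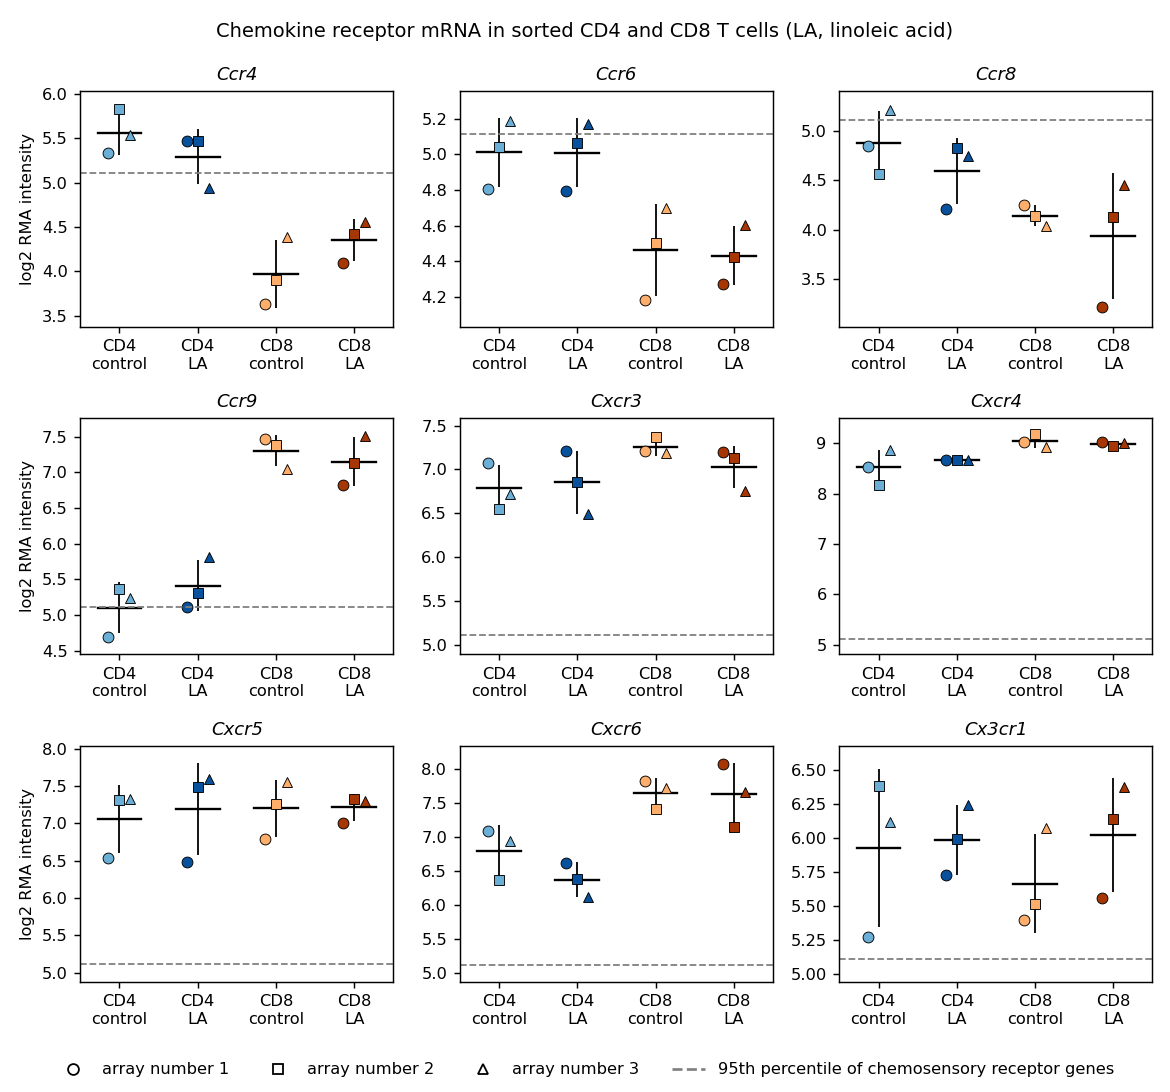
Log2 RMA intensity of each receptor in the 12 arrays, with 1 panel and 1 scale per receptor. Points are arrays (shape, replicate number), horizontal bars group means, vertical bars the SD of 3 arrays and the dashed line the background gauge at 5.11. Ccr9 and Cxcr6 lie higher in all 6 CD8 arrays than in any CD4 array, and Ccr4 and Ccr6 lie lower.

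CD8 T cells were set against CD4 T cells first, in each culture and over both. Ccr9 and Cxcr6, receptors of gut and of effector or tissue-resident T cells, were higher in CD8 T cells, and Ccr4 and Ccr6, receptors of helper and regulatory subsets, were higher in CD4 T cells. Averaged over both cultures, 5 of the 9 receptors passed limma at an adjusted p under 0.05, with Ccr9, Cxcr6 and Cxcr4 higher in CD8 and Ccr4 and Ccr6 lower. Of all tested genes 4.71% passed in that comparison. In control culture 2 receptors passed (Ccr9 higher, Ccr4 lower), against 1.95% of all genes. In linoleic acid culture 3 passed (Ccr9 and Cxcr6 higher, Ccr4 lower), against 2.03%. The CD4 and CD8 arrays did not overlap for 7 receptors in control culture, where 16.1% of all genes had this, and for 5 in linoleic acid culture, against 15.3%. The median difference of the 9 was 0.14 in control and 0.04 in linoleic acid culture, beside 0.00 and -0.02 for all genes.

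Ccr9 (probe set 17523633), the receptor for Ccl25 that leads T cells to the small intestine and is also used in the thymus, showed the largest difference of the 9. In control culture the CD4 arrays read 4.69, 5.36 and 5.24 and the CD8 arrays 7.46, 7.38 and 7.05. With linoleic acid they read 5.12, 5.31 and 5.81 in CD4 and 6.82, 7.12 and 7.50 in CD8. Every CD8 array was higher than every CD4 array, and the CD4 arrays lay near the background gauge, with 1 of the 3 control arrays below it. As measured, CD8 T cells carried 4.59-fold more in control culture (log2 2.20 ± 0.22 SE, n = 3 per group, limma adjusted p = 5.88e-05). The CD4 control mean in that fold, 5.10, lay just below the gauge. In both cultures the folds for CD8 T cells are those of measured intensity. CD8 T cells carried 3.34-fold more in linoleic acid culture (1.74 ± 0.22, limma adjusted p = 4.90e-04). Ccr9 passed in both cultures and over their mean in every alternative that was run.

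Cxcr6 (probe set 17523642) is the receptor for the membrane-bound chemokine Cxcl16 and is found on effector, resident and NKT cells. Its control arrays read 7.09, 6.36 and 6.95 in CD4 and 7.83, 7.42 and 7.72 in CD8. With linoleic acid the values were 6.62, 6.38 and 6.11 in CD4 and 8.08, 7.16 and 7.67 in CD8. The CD8 arrays were higher without overlap in both cultures, and the lowest CD8 value was an array of linoleic acid culture. Over both cultures CD8 T cells carried 2.09-fold more (1.06 ± 0.17, limma adjusted p = 0.00129), which passed in all 23 alternatives. In control culture the difference of 0.86 ± 0.24 missed the threshold (limma adjusted p = 0.101). Same-numbered arrays differed there by 0.74, 1.05 and 0.77. With the replicate number as a block the control difference passed (limma adjusted p = 0.00211), in a fit that called 4.4% of all genes. The larger difference in linoleic acid culture, 1.26 ± 0.24 (limma adjusted p = 0.0107), lost its call without CD4 linoleic acid replicate 3 (limma adjusted p = 0.0525). It also lost it after subtraction of the olfactory and vomeronasal mean (0.0676) and with only the arrays compared in the fit (0.0510).

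Ccr4 (probe set 17531887) binds Ccl17 and Ccl22 and is known from Th2, skin-homing and regulatory T cells. CD4 control arrays read 5.33, 5.83 and 5.53, and CD8 control arrays 3.63, 3.90 and 4.39. The linoleic acid arrays read 5.47, 5.47 and 4.94 in CD4 and 4.10, 4.42 and 4.56 in CD8. All 6 CD8 arrays were below the background gauge and below every CD4 array. In control culture the measured difference was -1.59 ± 0.21 (limma adjusted p = 6.00e-04), and this passed in all 18 alternatives. With the CD8 arrays set to the gauge, the group means were at least 1.37-fold apart, a bound that leaves out the spread between arrays. In linoleic acid culture the measured difference was -0.94 ± 0.21 (limma adjusted p = 0.0334). Setting the CD8 arrays to the gauge left these means 1.13-fold apart (log2 0.18, less than the SE). There 1 of the 3 CD4 arrays was below the gauge too. The call in linoleic acid culture ended in 7 of 18 alternatives. Among them were leaving out CD4 linoleic acid replicate 1 (limma adjusted p = 0.140) or 2 (0.172) or CD8 linoleic acid replicate 1 (0.0883) or 2 (0.0927). The mean over both cultures, -1.26 ± 0.15, passed in all 23 (limma adjusted p = 1.00e-04).

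Ccr6 (probe set 17333066), the receptor for Ccl20, is known from Th17 and regulatory T cells and is carried by B cells too. Control arrays read 4.80, 5.04 and 5.19 in CD4 and 4.19, 4.50 and 4.70 in CD8. With linoleic acid they read 4.79, 5.06 and 5.17 in CD4 and 4.27, 4.43 and 4.60 in CD8. The CD8 arrays were lower without overlap in each culture, and within every group the array numbered 1 was lowest. All 4 group means were below the background gauge, so no fold is given. Over both cultures the measured difference was -0.56 ± 0.11 (limma adjusted p = 0.00841), which passed in all 23 alternatives. Within single cultures the differences were -0.55 ± 0.16 in control (limma adjusted p = 0.132) and -0.58 ± 0.16 in linoleic acid culture (0.104). In linoleic acid culture, where numbers were taken to pair arrays, the fit with the number as a block called Ccr6 (limma adjusted p = 0.00270). That fit called 5.57% of all genes. For control culture, where pairing was not assumed, the block called Ccr6 too (limma adjusted p = 0.00398), with 4.4% of all genes.

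Ccr8 (probe set 17523158) binds Ccl1 and in mouse also Ccl8, and marks Th2 and tissue regulatory T cells. Its arrays read 4.85, 4.57 and 5.21 in CD4 control and 4.25, 4.14 and 4.03 in CD8 control. In linoleic acid culture they read 4.21, 4.83 and 4.74 in CD4 and 3.22, 4.13 and 4.45 in CD8. The groups parted in control culture and overlapped with linoleic acid, and all but 1 of the 12 values were below the background gauge. Over both cultures Ccr8 differed by -0.70 ± 0.19 and lay just outside the threshold (limma adjusted p = 0.0505). It passed in 9 of 22 alternatives, among them without CD4 linoleic acid replicate 1 (limma adjusted p = 0.0325) or CD8 linoleic acid replicate 3 (0.0138).

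Cxcr4 (probe set 17226593), the receptor for Cxcl12 that holds cells in bone marrow and is carried by most T cells, read 8.53, 8.17 and 8.88 in CD4 control and 9.03, 9.20 and 8.92 in CD8 control. With linoleic acid the CD4 arrays read 8.67 each and the CD8 arrays 9.03, 8.96 and 9.01. CD8 arrays were higher without overlap, by a small amount. The difference over both cultures was 1.34-fold (0.43 ± 0.11, limma adjusted p = 0.0347), and 14 of 23 alternatives ended its call. Leaving out 1 array did so for 10 of the 12 arrays (limma adjusted p = 0.0531 to 0.0992), and subtraction of the olfactory and vomeronasal mean gave 0.409. In single cultures it stood at 0.52 ± 0.15 in control (limma adjusted p = 0.130) and 0.33 ± 0.15 with linoleic acid (0.419). Without CD4 control replicate 3 the control difference passed (limma adjusted p = 0.0242).

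**Figure D2:**
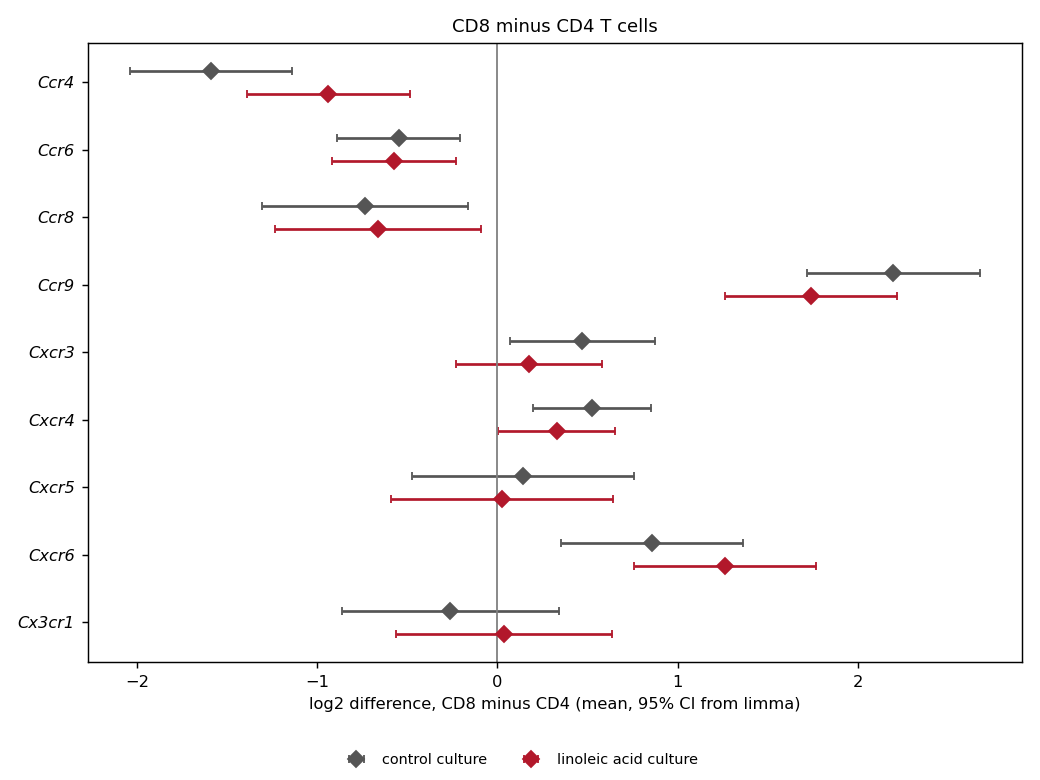
CD8 minus CD4 log2 difference of each receptor in control (grey) and linoleic acid culture (red), with diamonds for the difference of group means and bars for the 95% confidence interval of limma. Ccr9 stands at 2.20 and 1.74, Ccr4 at -1.59 and -0.94, and the intervals of Cxcr5 and Cx3cr1 include 0 in both cultures.

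The other receptors did not differ between the cell types past the threshold. Cxcr3 (probe set 17543625), the receptor for Cxcl9 and Cxcl10 on Th1 and effector CD8 T cells, read 7.08, 6.56 and 6.72 in CD4 control and 7.21, 7.37 and 7.19 in CD8 control. With linoleic acid it read 7.21, 6.86 and 6.50 in CD4 and 7.20, 7.13 and 6.76 in CD8. The groups parted narrowly in control culture (0.47 ± 0.19, limma adjusted p = 0.377) and overlapped with linoleic acid (0.17 ± 0.19, 0.778).

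Cxcr5 (probe set 17526310), the receptor for Cxcl13 that takes follicular helper T cells and B cells into follicles, read 6.54, 7.31 and 7.32 in CD4 control and 6.80, 7.26 and 7.55 in CD8 control. The linoleic acid arrays read 6.48, 7.49 and 7.60 in CD4 and 7.01, 7.33 and 7.30 in CD8. CD4 and CD8 arrays overlapped in both cultures, and the arrays numbered 1 were the lowest of each group. The CD8 minus CD4 difference was 0.14 in control (95% interval -0.48 to 0.76) and 0.02 with linoleic acid (-0.59 to 0.64).

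Cx3cr1 (probe set 17532268), the receptor for the membrane-bound chemokine Cx3cl1, marks cytotoxic effector cells and is abundant in monocytes. It read 5.27, 6.38 and 6.12 in CD4 control and 5.40, 5.51 and 6.07 in CD8 control. With linoleic acid it read 5.72, 5.99 and 6.24 in CD4 and 5.56, 6.13 and 6.37 in CD8. The groups overlapped in both cultures, and arrays of different numbers lay up to 1.11 apart. The differences were -0.26 (95% interval -0.86 to 0.34) in control and 0.04 (-0.57 to 0.64) with linoleic acid.

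Linoleic acid culture was then compared with control culture for each receptor, first within each cell type. Of the 9 receptors 0 passed limma in CD4 T cells and 0 in CD8 T cells, as did 0% of all genes in both. At an unadjusted p under 0.05 there were 0 receptors in either cell type, beside 2.6% of all genes in CD4 and 5.08% in CD8. With the replicate number as a block 0 receptors passed after adjustment, as did 0.00698% of all genes in each cell type. At an unadjusted p under 0.05 that fit held Cxcr6 in CD4, beside 5.61% of all genes, and Cx3cr1 in CD8, beside 13.5%. No receptor had treated arrays that were all above or all below the control arrays, where 7.44% of all genes in CD4 and 9.01% in CD8 had this.

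In CD4 T cells the differences ran from -0.43 ± 0.24 SE for Cxcr6 to 0.31 ± 0.22 for Ccr9, with a median of 0.06 beside -0.00 for all genes. The other values were -0.28 for Ccr8, -0.27 for Ccr4, -0.00 for Ccr6, 0.06 for Cx3cr1, 0.07 for Cxcr3, 0.13 for Cxcr5 and 0.14 for Cxcr4. Same-numbered CD4 arrays of Cxcr6 differed by -0.47, 0.02 and -0.83, and those of Ccr9 by 0.42, -0.05 and 0.56. So neither moved the same way in all 3 numbers. The 95% intervals of the 9 measured differences lay between -0.93 and 0.79. A measured fall of over 1.91-fold and a measured rise of over 1.73-fold were outside all of them. Means of Ccr6 and Ccr8 in both CD4 groups, and of Ccr9 in CD4 control, were below the background gauge. For these the intervals describe intensity and set no bound on the RNA.

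In CD8 T cells Ccr4 stood at 0.38 ± 0.21 and Cx3cr1 at 0.36 ± 0.28, the highest of the 9, and both were higher in all 3 same-numbered pairs. Ccr4 pairs differed by 0.46, 0.52 and 0.17, and Cx3cr1 pairs by 0.16, 0.62 and 0.30. Both missed the threshold (limma adjusted p = 0.757 for each), and the CD8 arrays of Ccr4 were below the background gauge. Cxcr3 had the lowest value, -0.23 ± 0.19, with pairs at -0.01, -0.24 and -0.43. The rest stood between -0.21 (Ccr8) and 0.01 (Cxcr5), and the median of the 9 was -0.03 beside -0.06 for all genes. All 95% intervals of the measured differences lay between -0.78 and 0.96, so a measured fall over 1.72-fold or rise over 1.94-fold was outside them. The lower limit is that of Ccr8 and the upper that of Cx3cr1. All CD8 arrays of Ccr4, Ccr6 and Ccr8 were below the background gauge, so for these the intervals set no bound on the RNA.

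Averaged over both cell types Cxcr6 lay at -0.22 ± 0.17 and Cx3cr1 at 0.21 ± 0.20, each with the same sign in all 3 numbers (limma adjusted p = 0.925 and 0.927). The difference between the effects in CD4 and in CD8 T cells was tested for each receptor, and 0 of 9 passed, as did 0% of all genes. Ccr4 had the only unadjusted p under 0.05 among the 9, which 2.35% of all genes had. Its effect in CD4 minus that in CD8 was -0.65 ± 0.30 (95% interval -1.29 to -0.01, unadjusted p = 0.0461, limma adjusted p = 0.953), with pairs at -0.32, -0.87 and -0.76. This is the same contrast as the drop of the Ccr4 gap between CD8 and CD4 from -1.59 in control to -0.94 in linoleic acid culture, where the CD8 arrays were below the background gauge in both. For Ccr9 the difference of effects was 0.46 ± 0.32 and for Cxcr6 -0.41 ± 0.33 (limma adjusted p = 0.953 for both).

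**Figure D3:**
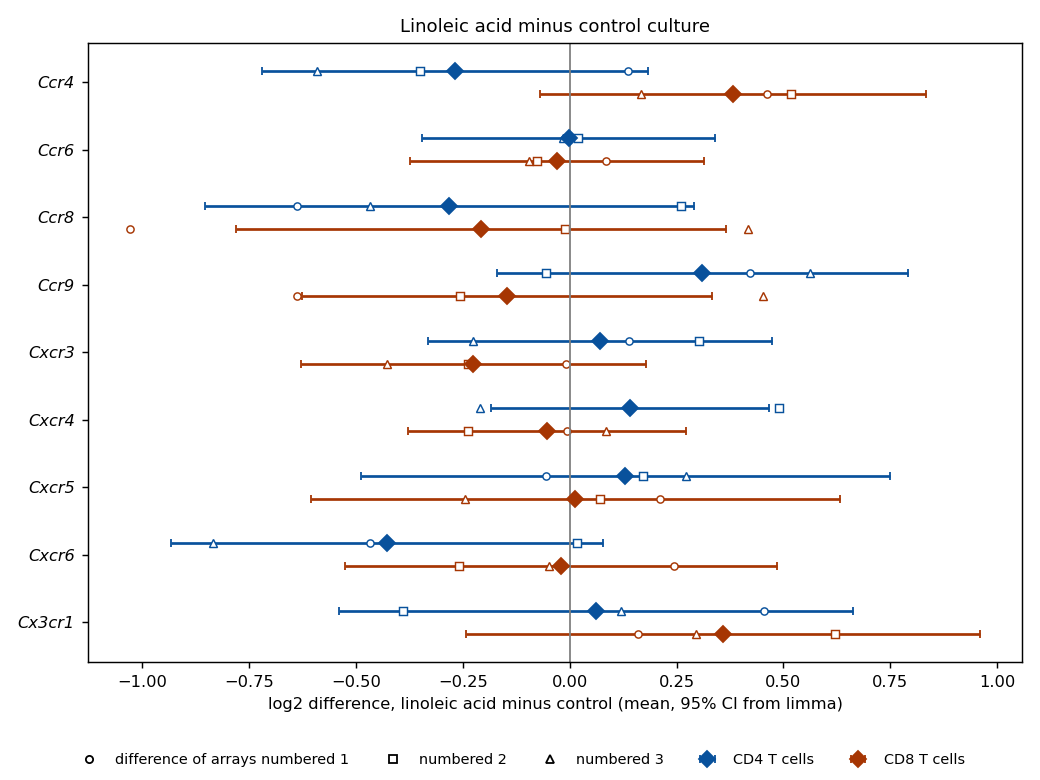
Linoleic acid minus control log2 difference of each receptor in CD4 (blue) and CD8 T cells (orange). Diamonds are differences of group means, bars 95% confidence intervals of limma, and open symbols the differences of same-numbered arrays. Every interval includes 0, and for Ccr4 the means lie on opposite sides at -0.27 and 0.38.

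Levels of Cxcr5, Ccr6 and Cx3cr1 moved with the replicate number and with the B cell markers. Cxcr5 read 6.48 to 7.01 in the 4 arrays numbered 1 and 7.26 to 7.60 in the 8 others, with no overlap across all 4 groups. Cx3cr1 read 5.27 to 5.72 and 5.51 to 6.38, and Ccr6 4.19 to 4.80 and 4.43 to 5.19. Over the 6 CD4 arrays Pearson's r with the mean of the B cell markers was 0.99 for Cxcr5, 0.92 for Ccr6 and 0.86 for Cx3cr1. Over the 6 CD8 arrays it was 0.90, 0.87 and 0.75. Ccr9 had r of 0.80 in CD4 and 0.22 in CD8 arrays, Ccr4 -0.01 and 0.70, Ccr8 0.42 and 0.56 and Cxcr4 -0.01 and -0.11. Values below 0 in both were found for Cxcr3, with -0.87 and -0.29, and for Cxcr6, with -0.65 and -0.74. These values describe 6 arrays each that share a culture, a number and their myeloid and NK marker levels. The mean of the olfactory and vomeronasal genes also moved with the number, at 2.99 to 3.15 in arrays numbered 1 and 3.15 to 3.46 in the others. Dendritic cell markers averaged 5.22 to 5.30 and 5.30 to 5.53, and T cell markers 9.91 to 10.04 and 9.64 to 9.91. The part of other cells, or of an array-wide shift of dim signal, in the receptor levels was not tested.

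B cell markers also lay lower in CD8 than in CD4 arrays for 13 of 13 genes in each culture, with medians of -0.32 in control and -0.48 with linoleic acid and 0 past the threshold in limma (0 at an unadjusted p under 0.05). With the number as a block, 7 of them passed in linoleic acid culture, 4 in control culture and 9 over both cultures, each lower in CD8. The block called 5.57%, 4.4% and 9.23% of all genes in these comparisons. Among the receptors Ccr4, Ccr6 and Ccr8 had the same direction in both cultures. With the B cell marker mean as a covariate, a fit added after the data were seen, Ccr6 stood at -0.46 in both cultures (limma adjusted p = 0.0395 in control and 0.0326 with linoleic acid), and Cxcr6 in control culture stood at 0.73 (0.0265). That fit called Ccr4, Ccr6, Ccr9 and Cxcr6 in each culture, and it called 3.32% of all genes in control and 5.24% in linoleic acid culture.

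**Figure D4:**
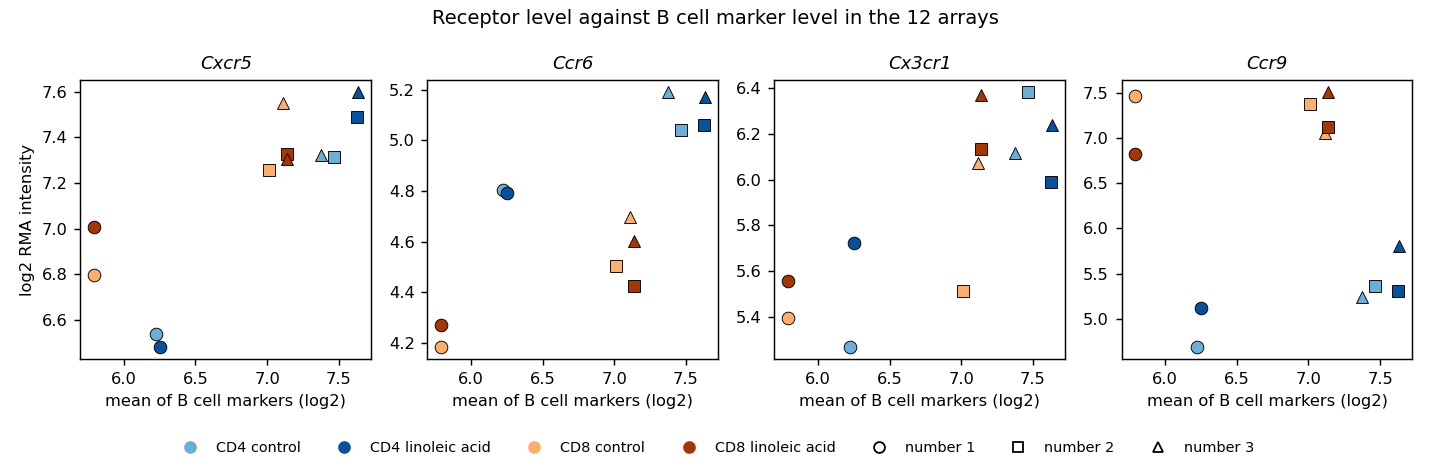
Log2 level of 4 receptors against the mean log2 level of 13 B cell markers in the 12 arrays, coloured by group and shaped by replicate number. Within each group Cxcr5, Ccr6 and Cx3cr1 are lowest in the array numbered 1, and the arrays numbered 1 have B cell marker means of 5.79 to 6.25. Ccr9 splits by cell type, and so does Ccr6.

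The neighbours of Ccr9 and Cxcr6 on chromosome 9 did not all differ in one direction. In RefSeq gene order Ccr9 is followed by Fyco1, Cxcr6, Xcr1, Ccr1, Ccr1l1, Ccr3 and Ccr2. Over both cultures Ccr9 stood at 1.97, Fyco1, which codes for an adaptor of vesicle transport, at 0.59 ± 0.13 (limma adjusted p = 0.0138) and Cxcr6 at 1.06. Xcr1, a receptor of cross-presenting dendritic cells, stood at 0.14 ± 0.13 (limma adjusted p = 0.721). Ccr2, a receptor of monocytes and effector T cells, was lower in CD8 T cells at -0.55 ± 0.09 (limma adjusted p = 0.00196). Ccr1, Ccr1l1 and Ccr3 were too dim to be tested. Ccr8 and Cx3cr1 are also next to each other, and there Ccr8 stood at -0.70 while the CD4 and CD8 arrays of Cx3cr1 overlapped.

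Other genes of the chemokine system were read from lists that were chosen with earlier results of these data known. Over both cultures 4.71% of all genes passed between CD8 and CD4, the share to set beside each count of these lists. Of 14 further chemokine receptors 9 were tested, and 2 were lower and 0 higher in CD8 T cells, Ccr2 and Cxcr1 (-1.54 ± 0.09, limma adjusted p = 4.16e-08), the latter a receptor of neutrophil-attracting chemokines. Ccr2 passed in control culture (-0.82 ± 0.13, limma adjusted p = 0.00269) and not with linoleic acid (-0.28 ± 0.13, 0.419). Of 13 ligands of the 9 receptors 9 were tested and 0 passed in limma in the CD8 against CD4 comparisons, with 0 at an unadjusted p under 0.05 as well. With the number as a block, Ccl22 passed in linoleic acid culture (-0.64, limma adjusted p = 0.0283). Over both cultures Ccl22, a ligand of Ccr4, stood at -0.51 ± 0.42 and Cxcl16, the ligand of Cxcr6, at -0.31 ± 0.22.

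Of 30 tested genes of receptor signalling (G protein subunits, kinases and regulators downstream) 3 were lower over both cultures and 0 higher in CD8 T cells, beside 4.71% of all genes in either direction. Rgs2 stood at -0.91 ± 0.13 (limma adjusted p = 4.85e-04) and Rgs1 at -0.83 ± 0.16 (0.00730). Both are brakes that speed up the switching off of G proteins. The kinase Jak2 stood at -0.36 ± 0.09 (0.0247). Of 14 tested other trafficking receptors 1 was higher and 2 lower. Itgae, the integrin chain that binds E-cadherin on epithelium, stood at 2.46 ± 0.12 (limma adjusted p = 2.02e-08), Gpr183, the oxysterol receptor, at -0.42 ± 0.10 (0.0248) and the prostaglandin receptor Ptger4 at -0.37 ± 0.10 (0.0460).

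The last list held transcription factors known to regulate these receptors. Of 24 tested, 2 were higher and 11 lower in CD8 T cells over both cultures, beside 4.71% of all genes in either direction. Foxp3, the regulator of regulatory T cells, which carry Ccr4 and Ccr8, stood at -3.27 ± 0.11 (limma adjusted p = 8.00e-10), Eomes, a factor of CD8 effector cells, at 1.63 ± 0.14 (3.60e-06), Maf at -1.34 ± 0.13 (2.29e-05) and Ikzf2 at -0.81 ± 0.11 (2.81e-04). Runx3 was higher by 1.01 ± 0.17 (limma adjusted p = 0.00209). Bcl6, which directs the Cxcr5-bearing follicular helper cells, stood at -0.86 ± 0.14 (0.00176). Cxcr5 itself did not pass, and its level moved with the B cell markers (r of 0.99 in CD4 and 0.90 in CD8 arrays). It is therefore not set against Bcl6 here. Tbx21, which drives Cxcr3, stood at 0.28 ± 0.09 and missed the threshold (limma adjusted p = 0.115). The retinoic acid receptors, through which the gut vitamin A metabolite induces Ccr9, stood at 0.17 (Rara), -0.04 (Rarb) and 0.36 (Rarg), with limma adjusted p of 0.729, 0.929 and 0.256. In the comparisons of linoleic acid with control, 0 genes of any of these lists passed in limma in either cell type, and the lists of other receptors, ligands, signalling, trafficking and regulators held 1, 0, 0, 0 and 0 genes at an unadjusted p under 0.05 in CD4 and 2, 0, 1, 0 and 1 in CD8.

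The 3 genes whose levels ran most like each receptor above background were sought by Pearson's r over the 12 arrays, which share groups and numbers. Ccr9 was most like Cd8a (0.97), Epsti1 (0.97) and Cd8b1 (0.97). After each group's mean was taken out the r values were 0.56, 0.57 and 0.38. Cxcr5 was most like Slamf7 (0.97), Plek (0.96) and Ccl3 (0.95), with 0.98, 0.97 and 0.97 after group means were taken out. Cxcr6 ran with Sugt1, Plgrkt and Rgcc (0.96 each), Cxcr3 with Mettl27 (0.95), Tstd3 (0.95) and Ehd3 (0.94), and Cxcr4 with Zfp839 (0.95), Tagap (0.94) and Gosr1 (0.93). Cx3cr1 ran with Speer4b (0.95), Gdpd4 (0.95) and Slc14a2 (0.93). The search covered only part of the 14323 tested genes. It left out the receptors themselves, predicted and Rik genes, and antigen receptor, small RNA, olfactory and vomeronasal genes. Each gene named is among the 3 highest for its receptor in that search. With few arrays, the r values are given as a description.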

How the data were processed

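The deposited values are log2 intensities, 1 per probe set and array, which the authors had made with RMA, per the submitters' processing notes. No software version, RMA summary level or build is given in the sources used here. Values were used as deposited. Probe sets with 1 gene symbol (23521 of 41345) were named from the platform annotation, the probe set with the highest mean stood for a gene, and 14323 of 22180 genes had a mean at or above the 40th percentile of all probe sets (log2 4.28). Group means of all 12 arrays were fitted in limma 3.58.1 (R 4.3.3; lmFit, eBayes, two-sided, 8 residual and 5.67 prior degrees of freedom), with Benjamini-Hochberg adjustment over the 14323 genes at 0.05. The number of arrays limits the precision.

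Deviations of same-numbered arrays from group means correlated at 0.61, 0.19 and 0.32 between the CD4 groups, 0.43, 0.19 and 0.42 between the CD8 groups and 0.58, 0.26 and 0.52 between the linoleic acid groups. Numbers were taken to pair arrays there, on the data's evidence alone. Between the control groups the values were 0.54, -0.01 and 0.42, and for the low value of number 2 no pairing was assumed there. Number 2 was also the lowest in each comparison above, at 0.19, 0.19 and 0.26. Pairs in those comparisons would imply pairs between the control groups too, so that assumption is not settled. The block fit of control culture is therefore given as well for Ccr6 and Cxcr6. Differently numbered arrays of all groups correlated at -0.58 to 0.32, and same-numbered ones at -0.01 to 0.61. CD4 control number 2 with CD4 linoleic acid number 3 gave 0.32, so whether numbers 2 and 3 each pair is not settled. The receptors and lists, and the rule naming up to 4 genes of a list with the smallest p and the known regulators and ligands of the receptors, were chosen with earlier results of these data known. Promoters and gene order are from RefSeq GRCm38.p6, and 8 of the 9 receptors matched a promoter.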

Additional observations from a re-analysis of the deposited data

How the results depend on the processing

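The number of receptors called in CD8 against CD4 changed by more than 1.5 times in few alternatives. In control culture 4 receptors passed in place of 2 with the replicate number as a block (630 genes in all, against 280). The block added Ccr6 (limma adjusted p = 0.00398) and Cxcr6 (0.00211), though numbers were not taken to pair those groups. With the B cell marker mean as a covariate 4 passed as well (475 genes). In linoleic acid culture 5 passed with array weights (2299 genes, against 291) and 1 when only the 6 arrays compared entered the fit (138 genes). With the block the linoleic acid culture calls 798 genes, and over both cultures it calls 1322, against 674. Over both cultures it also calls Ccr8 (limma adjusted p = 0.00587) and, among the ligands, Ccl22 (0.00820) and Cxcl16 (0.0324). Leaving out each array gave 2 to 3 receptors in control, 2 to 3 in linoleic acid culture and 4 to 5 over both cultures, and 0 in each comparison of linoleic acid with control. Of 919 alternative values of single receptors 828 kept direction and call, 48 changed sign, and all of these belonged to differences that had not passed. The B cell marker covariate and the fit of arrays numbered 2 and 3 alone were chosen after the data were seen. Beside Ccr6 and, among the ligands, Ccl22 in linoleic acid culture, the block changed no call of a receptor or ligand in the comparisons taken as paired. Subtracting the olfactory and vomeronasal mean moved the median of all genes by -0.11 in linoleic acid culture and by -0.17 for linoleic acid in CD8. The stricter filter leaves out Ccr8.

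Signs turned as follows. For CD8 minus CD4 in linoleic acid culture Cxcr5 became -0.00478 with median centring, -0.0839 after that subtraction, -0.0465 with array weights and -0.23 with arrays numbered 2 and 3 alone, and Cx3cr1 became -0.0727 after the subtraction. For linoleic acid in CD4 T cells Ccr6 became 0.00334 with array weights and 0.00125 with numbers 2 and 3 alone, and Cx3cr1 -0.14 with these numbers and -0.00953 with the covariate. In CD8 T cells Cxcr5 became -0.0417 with median centring, -0.15 after the subtraction, -0.0868 with numbers 2 and 3 and -0.0130 with the covariate. Quantile normalization gave 0.0202 for Cxcr4 and 0.0669 for Cxcr6 there, and numbers 2 and 3 alone gave 0.20 for Ccr8 and 0.10 for Ccr9. Leaving out 1 array spanned 0 for Cxcr5 (-0.12 to 0.34 in control, -0.33 to 0.23 in linoleic acid culture, -0.13 to 0.48 for the effect in CD4, -0.19 to 0.19 in CD8), Cx3cr1 (-0.14 to 0.27 in linoleic acid culture, -0.27 to 0.29 for the effect in CD4) and Cxcr3 (-0.00542 to 0.35 in linoleic acid culture, and for the effect in CD4 -0.11 to 0.25). It did so too for the effect on Ccr6 (-0.11 to 0.10 in CD4, -0.17 to 0.0882 in CD8), Cxcr4 (-0.0347 to 0.32 in CD4, -0.12 to 0.0190 in CD8), and in CD8 alone on Cxcr6 (-0.24 to 0.22), Ccr8 (-0.47 to 0.15) and Ccr9 (-0.32 to 0.0153). The cause was not tested.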
